A study of Mus musculus with 20 samples.

Results

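The genes described here encode the proteasome, the protease that degrades ubiquitin-tagged proteins, and the factors that build, open or block it. They are the rows of the LSK and MEP expression tables with a symbol that starts with Psm, a letter from a to g and a digit, other than Psmb8 and Psmb9, whose mean reached 1 FPKM (fragment counts scaled by transcript length and library size) over the 10 libraries of the cell type. Each table lists 24315 genes, of which 50 match the name pattern and 47 met the rule, the same 47 in both cell types. Psmb11, a thymus-specific catalytic subunit, fell outside the threshold with a mean of 0.0348 FPKM in LSK and 0.00772 FPKM in MEP, and the lowest gene inside it was Psma8 with 3.56 and 3.53 FPKM. All 47 genes also passed the filter on low values used for testing.

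The barrel-shaped core, called 20S, has outer alpha rings that gate the entry and inner beta rings that cut proteins, with Psmb5, Psmb6 and Psmb7 as the catalytic subunits of the constitutive form and Psmb10 replacing Psmb7 in the immunoproteasome. The regulatory cap, called 19S, has an ATPase ring (Psmc genes) that unfolds substrates, a base with ubiquitin receptors, and a lid in which Psmd14 removes ubiquitin. Psmg1 to Psmg4 are chaperones of core assembly and Psmd5, Psmd9 and Psmd10 chaperones of cap assembly, whereas Psme1 to Psme4 are alternative activators and Psmf1 is an inhibitor of the core. Erythroid cells degrade much of their proteome as they mature, in part through the proteasome. The 47 genes comprise 8 alpha ring, 8 beta ring, 6 ATPase, 3 further base and 8 lid genes, 4 activators, the Psme2 copy Psme2b, 1 inhibitor, 4 core and 3 cap assembly genes, and Psmc3ip, a recombination factor that shares only the symbol pattern.

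RNA came from bone marrow LSK cells (Lin-Sca1+Kit+, enriched for stem and early progenitor cells) and MEP cells (megakaryocyte-erythrocyte progenitors, gated as Lin-Sca1-Kit+CD34-FcγRII/III lo/-) that were sorted from C57BL/6 mice of 4 genotypes. In each cell type 3 libraries were WT, 3 Dnmt3a-/-, 2 Bcor-/- and 2 Bcor-/-Dnmt3a-/-, and the labels show that an LSK and a MEP library were made from the same mouse. Deletion in the study used Mx1-Cre, a recombinase under an interferon-inducible promoter that was switched on with pIpC, and the study describes the Dnmt3a deletion in Dnmt3a-/- mice as partial. The sample descriptions carry a Cre tag for every mutant library and none for the controls, and whether the controls received pIpC is not given by the labels. The label of Bcor-/- replicate 1 names 2 mice, and the labels give neither age nor disease stage. The study describes its comparison of Bcor-/-Dnmt3a-/- with WT as one of leukemic mice, so that leukemia and genotype cannot be told apart in these libraries. The question addressed was how the RNA of proteasome genes differed between each mutant genotype and WT, and between the 2 cell types.

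RNA of the deleted genes was not lost in either cell type. FPKM are given for whole genes, so loss of the deleted exons cannot be seen in them. The study itself found no Bcor mRNA in Bcor-/- LSK by reverse transcription and PCR, and reports loss of Bcor protein in lineage-negative marrow cells. It also describes an unstable Bcor mRNA after deletion and a complete Dnmt3a loss in leukemic Bcor-/-Dnmt3a-/- mice. The FPKM below do not show such losses, and why was not tested. Bcor had 22.4 and 23.2 FPKM in Bcor-/- LSK against 29.6 to 32.4 in WT, but 24.0 and 37.5 in Bcor-/-Dnmt3a-/- LSK, and overlapped WT in MEP. Dnmt3a had 10.4 and 10.9 FPKM in Bcor-/-Dnmt3a-/- LSK, below the 16.1 to 19.9 of WT, and 11.3 to 16.9 in Dnmt3a-/- LSK. It had 2.56 to 5.40 FPKM in Dnmt3a-/- MEP against 5.49 to 6.64 in WT, and 6.85 and 3.44 in Bcor-/-Dnmt3a-/- MEP. Genotypes are those of the labels. The sum over 9 genes of the LSK gate was 1153 to 1359 FPKM in WT LSK and 97.1 to 202.2 in WT MEP, where Ly6a and Procr were listed at 0 in some libraries, and that over 7 MEP genes was 311.7 to 401.3 in WT LSK and 584.2 to 642.8 in WT MEP. Both Bcor-/-Dnmt3a-/- libraries stood apart from the rest by their markers. Summed FPKM of 13 erythroid genes was 6420 and 24010 in Bcor-/-Dnmt3a-/- LSK against 82.3 to 174.5 in WT, and 4394 and 97370 in Bcor-/-Dnmt3a-/- MEP against 1097 to 1761, with Hbb-b1 listed at 0 in Bcor-/-Dnmt3a-/- replicate 2 of MEP. The LSK gate sum was 182.6 and 380.5 in Bcor-/-Dnmt3a-/- LSK. In bulk RNA, fewer cells of a type and less RNA per cell cannot be told apart.

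Sequence shared between genes limits some of the values. Of the 50-base words in the longest annotated transcript of each gene (GENCODE, GRCm38), other genes shared 69.3% for Psme2b and 59.3% for Psme2, which are copies of each other, so that both are uncertain. The share was 57.1% for Psmb5 and 54.5% for Psma5, mainly with pseudogenes. Exons of Psmd9 overlapped the antisense gene Gm26745 over 1849 bases and those of Psmb7 overlapped Nek6 over 405 bases, and the strand setting of the counting is not stated. Smaller overlaps or shares were found for other genes, some of them named below. Psmg3 overlapped Gm26938 over 280 bases on the same strand and shared 9.82% of its words, and Psmb3 shared 10.1%. Exons of Psmd13 overlapped Sirt3 over 342 bases and those of Psmc3 overlapped Slc39a13 over 215 bases, both on the opposite strand. How far such reads moved any value was not tested.

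In WT mice, most proteasome genes had more FPKM in MEP than in LSK. For 41 of the 47 genes all 3 WT MEP libraries lay above all 3 WT LSK libraries, 2 lay below and 4 overlapped. The median log2 ratio of MEP to LSK was 0.78, against -0.11 for all genes tested in both. The 2 tables may have been scaled separately, so these levels are set side by side without a test. Psmd9, a chaperone of cap assembly, had the largest excess in MEP with 38.1 ± 6.17 FPKM (SD, n = 3) against 14.6 ± 1.67 in LSK. The lid subunit Psmd7 followed Psmg3 in that order, with 214.9 ± 18.0 against 91.6 ± 1.93 FPKM. The 2 genes that were lower in MEP belong to the interferon-inducible forms. Psmb10, the immunoproteasome subunit, had 39.8 ± 3.91 FPKM in MEP and 79.3 ± 6.30 in LSK, and Psme1, a subunit of the interferon-inducible activator, had 159.5 ± 9.58 and 261.5 ± 7.59. The overlapping genes were Psma8, Psme2, Psme2b and Psmg4.

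**Figure D1:**
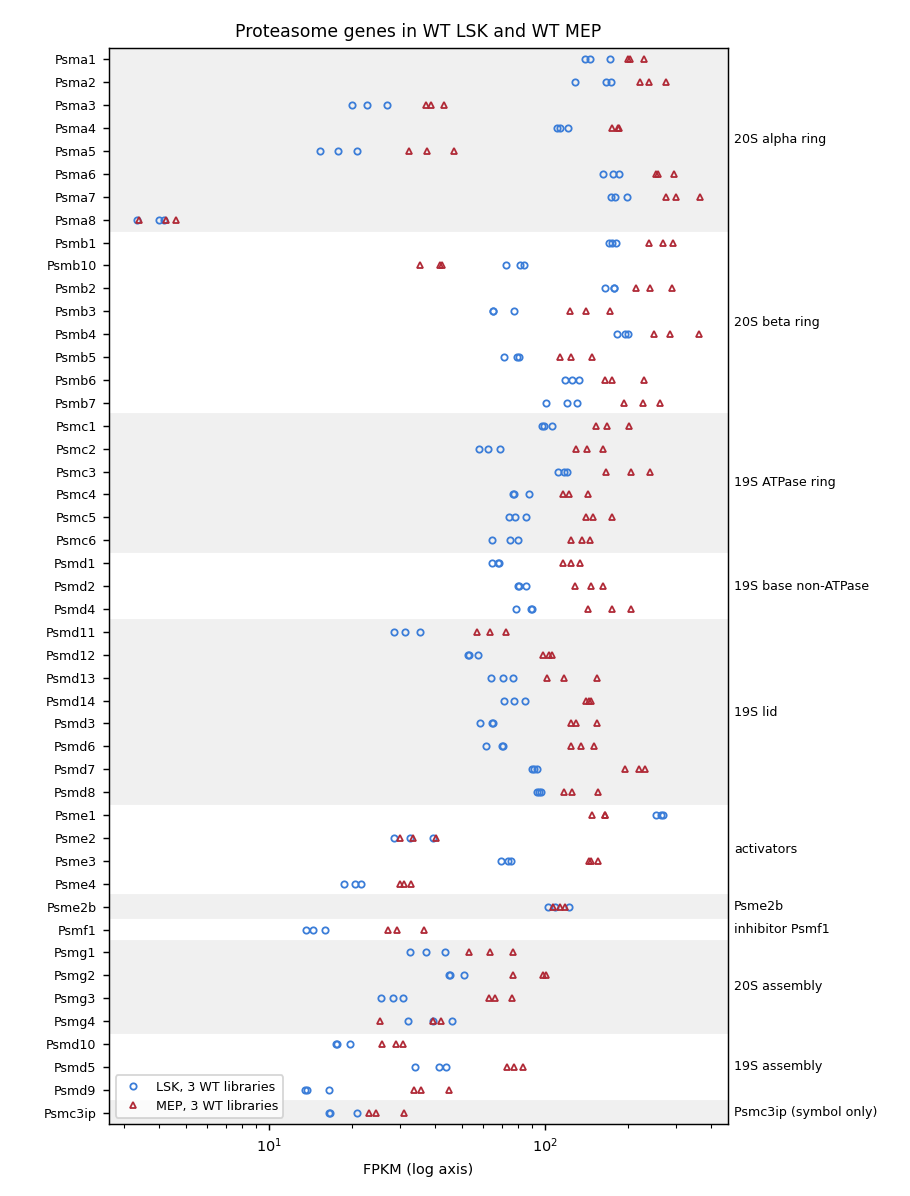
FPKM of the 47 proteasome genes in the 3 WT libraries of LSK (circles) and of MEP (triangles), on a log axis and grouped by role. MEP lies to the right of LSK for 41 genes, and to the left for Psmb10 and Psme1.

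Levels per length varied from gene to gene within a ring. Among the alpha ring genes of WT LSK, Psma7 had 183.9 FPKM and Psma5 18.0, and Psma8, a subunit known from the testis, had 3.84. Psma5 and Psma3 are the lowest of the ubiquitous alpha subunits here, and both share transcript words with pseudogenes. In the beta ring the range ran from 69.0 FPKM for Psmb3 to 193.0 for Psmb4. The core chaperones Psmg1 to Psmg4 had 28.1 to 47.2 FPKM, below every beta ring gene, and the cap chaperones Psmd5, Psmd9 and Psmd10 had 14.6 to 39.8.

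Most of the 47 genes lay on the same side of the WT mean in several libraries. Each gene was expressed as the difference of its log2(FPKM + 1) from the mean of the 3 WT libraries, and the median over the 47 genes was taken per library. In LSK the WT medians were -0.02, 0.06 and -0.06, and those of Dnmt3a-/- libraries were -0.16, 0.01 and 0.04. Bcor-/- libraries had medians of 0.25 and 0.37, with 45 and 46 of the 47 genes above the WT mean, and Bcor-/-Dnmt3a-/- libraries had 0.17 and -0.01. Both Bcor-/- libraries thus lay above every other LSK library. In MEP the WT medians were -0.04, 0.17 and -0.13, and those of Dnmt3a-/- libraries were -0.05, 0.08 and 0.13. Both Bcor-/- libraries had -0.06, whereas Bcor-/-Dnmt3a-/- libraries had -0.39 and -0.14, the lowest medians in MEP. WT replicate 2 of MEP had 46 of the 47 genes above the WT mean, and WT replicate 3 had 5. For all tested genes the corresponding median lay between -0.02 and 0.02 in every library, but their summed FPKM differed. In LSK the sum was 461100 and 484320 in Bcor-/- libraries and 452960 and 520540 in Bcor-/-Dnmt3a-/- libraries, against 417610 to 433120 in WT. In MEP, Bcor-/-Dnmt3a-/- libraries had 434250 and 623670 against 423680 to 475310 in WT. The part of these unequal sums in the medians of the 47 genes was not tested.

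**Figure D2:**
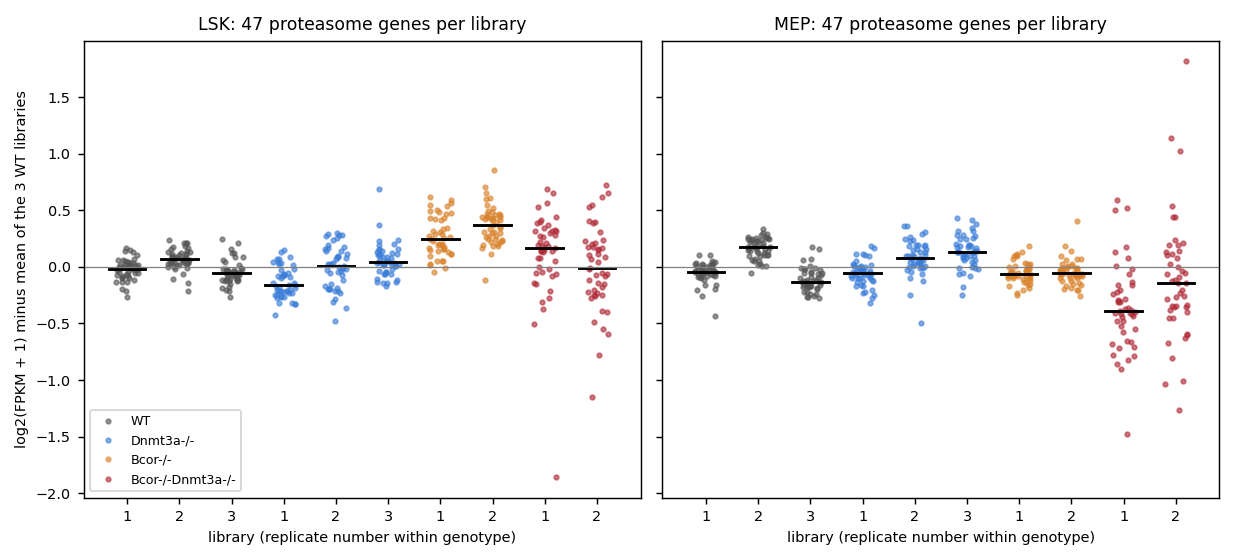
Difference of log2(FPKM + 1) from the WT mean for the 47 proteasome genes (points) in each of the 10 libraries of LSK and of MEP, with the median as a line. Both Bcor-/- libraries lie highest in LSK, at 0.25 and 0.37, and Bcor-/-Dnmt3a-/- replicate 1 lies lowest in MEP, at -0.39.

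Loss of Dnmt3a alone was compared with WT first. A gene was called where limma's unadjusted p was under 0.05 and the fold change above 1.5, the thresholds of the study. None of the 47 genes was called in LSK, where 0.443% of all genes were, nor in MEP, where 0.412% were. At any fold, limma's unadjusted p was under 0.05 for none of them; among all genes it was for 0.586% higher and 0.72% lower in LSK, and for 1.11% and 0.951% in MEP. Fitted log2 fold changes ran from -0.20 to 0.21 in LSK, with a median of -0.04. In MEP the median was 0.05, and without WT replicate 2 of MEP 5 genes were higher at an unadjusted p under 0.05. Psmb5 had 64.5, 61.8 and 78.6 FPKM in Dnmt3a-/- LSK against 70.98, 80.7 and 79.2 in WT, with overlap, and Psmg3 had 66.5, 69.98 and 70.1 in Dnmt3a-/- MEP against 65.98, 76.4 and 62.8. Over the catalytic subunits, activators, inhibitor and chaperones, changes ran from -0.20 (Psmg3) to 0.20 (Psme4) in LSK and from -0.11 (Psmb10) to 0.31 (Psmg4) in MEP.

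Loss of Bcor alone went with higher proteasome RNA in LSK. Of the 47 genes 46 had a positive log2 fold change, with a median of 0.32 against -0.01 for all genes tested. Only 3 genes passed both thresholds, all higher, or 6.38% of the 47 where 13.2% of all genes were called and 7.2% were called higher and 6.03% lower. At an unadjusted p under 0.05 and any fold, 25 of the 47 genes rose and none fell, where 13.9% of all genes rose and 11.1% fell. Of the 47, 39 had both Bcor-/- libraries above every WT library, against 27.1% of all genes, and none had both below, against 27%. After Benjamini-Hochberg adjustment over all genes 6 genes rose at any fold (Psma7, Psmb3, Psmb5, Psmc3, Psmd13 and Psmg1), against 4.5% of all genes. The count of 3 was 1 without WT replicate 1 and 5 without WT replicate 2 or Bcor-/- replicate 1. The count of 25 was 16 without WT replicate 1, 16 without WT replicate 2, 12 without WT replicate 3, 16 without Bcor-/- replicate 1 and 10 without Bcor-/- replicate 2. Under quantile normalization 44 changes were positive, the median fell to 0.18 and 10 genes rose. With 2 libraries against 3, an exact permutation test of a single gene cannot give a p below 0.1.

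Among the core subunits, all 16 had a positive change in Bcor-/- LSK, 9 rose at an unadjusted p under 0.05 and 13 lay above every WT library in both Bcor-/- libraries. Psmb5, which carries the chymotrypsin-like activity, had 116.0 and 117.2 FPKM in Bcor-/- LSK against 70.98, 80.7 and 79.2 in WT, and its log2 fold change was 0.60 ± 0.12 (SE; limma adjusted p = 0.027). The groups did not overlap, and the lower Bcor-/- value exceeded the highest WT value by far more than the WT libraries differed among themselves. Psmb3, a non-catalytic beta subunit, had 96.1 and 113.1 FPKM against 64.9, 77.5 and 64.8, a log2 fold change of 0.59 ± 0.14 (limma adjusted p = 0.039). The fold change of Psmb3 dropped below the threshold without WT replicate 1, without WT replicate 3 and without Bcor-/- replicate 2, and that of Psmb5 without WT replicate 1 (0.55, 0.55, 0.48 and 0.54 on the log2 scale). Under quantile normalization neither was called (both 0.44), and reads of Psmb5 may be shared with pseudogenes, as given above. Psma7, at the outer ring, had 247.4 and 248.7 FPKM against 179.9, 198.5 and 173.2 and a smaller change of 0.43 ± 0.10 (limma adjusted p = 0.04). The catalytic subunits Psmb6 and Psmb7 had changes of 0.47 ± 0.12 and 0.47 ± 0.19 (limma adjusted p = 0.051 and 0.17). Psmb10, which takes the place of Psmb7 in the immunoproteasome, had 0.24 ± 0.17 (limma adjusted p = 0.42).

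All 17 genes of the 19S cap lay above every WT library in both Bcor-/- LSK libraries, and 13 of them rose at an unadjusted p under 0.05, with a median change of 0.32. All 6 ATPases rose, by 0.31 to 0.47 on the log2 scale. Psmc3 had 156.2 and 167.2 FPKM against 117.8, 120.2 and 112.1 in WT, a log2 fold change of 0.47 ± 0.10 (limma adjusted p = 0.032). The lid subunit Psmd13 had 102.6 and 107.2 FPKM against 63.6, 76.5 and 70.7, a change of 0.57 ± 0.13 (limma adjusted p = 0.039). None of the 17 reached a 1.5-fold change.

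Core assembly chaperones had a median change of 0.50 over the 4 genes, of which 3 rose at an unadjusted p under 0.05. Psmg3 had 43.6 and 51.5 FPKM in Bcor-/- LSK against 25.5, 28.3 and 30.6 in WT, the largest log2 fold change of the 47 at 0.74 ± 0.19 (limma unadjusted p = 0.0038, adjusted p = 0.054). Psmg1, the partner of Psmg2 in the first assembly step, had 53.2 and 59.6 FPKM against 32.6, 43.6 and 37.3, or 0.57 ± 0.14 (limma adjusted p = 0.041). Both chaperones were higher in every Bcor-/- library than in any WT library. Psmg1 passed 1.5-fold without WT replicate 2 or Bcor-/- replicate 1 (0.675 and 0.651). Activators stood lower: their median change was 0.14 and none of the 4 passed p under 0.05. Psme2, Psme3 and Psme4 had 0.04 ± 0.15, 0.25 ± 0.15 and 0.25 ± 0.15. Psme1 was the single gene with a negative value, -0.05 ± 0.11, with 264.8 and 240.5 FPKM against 263.1, 268.1 and 253.2. The inhibitor Psmf1 had 0.12 ± 0.12 and the 3 cap chaperones had 0.15 to 0.21, none at an unadjusted p under 0.05.

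Other genes of the pathway were taken from a list of 31 that included maturation and shuttle factors, ubiquitin genes and transcription factors. In Bcor-/- LSK 2 were called higher and 1 lower, where 7.2% of all genes were called higher and 6.03% lower. Shfm1, the small subunit of the cap known as Sem1, had 470.2 and 545.3 FPKM against 270.8, 343.6 and 250.2, a change of 0.82 ± 0.17 (limma adjusted p = 0.028). Rps27a, which encodes ubiquitin fused to a ribosomal protein, had 0.59 ± 0.22 (limma adjusted p = 0.14). Zfand5, which encodes a proteasome-binding zinc finger protein, fell from 36.2, 32.1 and 30.9 FPKM to 18.5 and 17.9 (limma adjusted p = 0.035). Pomp, the maturation factor of the core, had 234.4 and 249.0 FPKM against 197.3, 188.4 and 180.8, or 0.35 ± 0.12 (limma adjusted p = 0.11).

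Genes of oxidative phosphorylation shifted as well. Of 74 such subunits tested in LSK, 69 had a positive change in Bcor-/- with a median of 0.42, and 45 rose at an unadjusted p under 0.05. Among all genes 13.9% rose and 11.1% fell. Of 80 cytosolic ribosomal protein genes, 52 were positive with a median of 0.07, and 5 rose and 1 fell. Markers of other cells moved in the same libraries. The summed FPKM of 10 granulocytic genes was 18000 and 25710 in Bcor-/- LSK against 3506 to 13400 in WT, and 5 of the 10 were called higher. That of 9 LSK gate genes was 595.3 and 879.1 against 1153 to 1359, with 3 called lower, and that of 11 cycling genes was 1116 and 1275 against 983.3 to 1085, with 2 called higher. Of 12 erythroid genes tested 6 were called higher, with sums of 231.5 and 293.6 against 82.3 to 174.5. Of 7 MEP genes 3 were called higher and 1 lower, with sums of 273.3 and 293.6 against 311.7 to 401.3. Of 13 interferon response genes 2 were called lower, with sums of 759.4 and 603.9 against 704.6 to 719.9. This list includes the immunoproteasome genes Psmb8 and Psmb9, which are part of its sums. Of 6 T or NK cell genes 1 was called higher, with sums of 450.2 and 616.4 against 213.6 to 232.8. The other 5 had negative changes, and the median of the 6 was -0.35. Their part in the proteasome result was not tested.

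Promoter windows are shown for 3 genes of this comparison, the called genes Psmb5 and Psmg3 and the chaperone Psmg1, to show which of 3 motifs each holds. RefSeq windows of GRCm38.p6, from 250 bases before to 50 after the annotated start, were found for 39 of the 47 genes. Both strands were searched for TGACNNNGC (the core of the element bound by Nfe2l1 and Nfe2l2, which activate proteasome genes), for CCAAT (bound by NF-Y) and for CCGGAA (a core bound by ETS factors), and overlaps between motifs were allowed. Capitals mark the matches. The windows lie at chr14:54617946-54618245 (minus strand), chr16:95990911-95991210 (minus strand) and chr5:139826845-139827144 (minus strand) and read, 5′ to 3′ along the gene:
Psmb5: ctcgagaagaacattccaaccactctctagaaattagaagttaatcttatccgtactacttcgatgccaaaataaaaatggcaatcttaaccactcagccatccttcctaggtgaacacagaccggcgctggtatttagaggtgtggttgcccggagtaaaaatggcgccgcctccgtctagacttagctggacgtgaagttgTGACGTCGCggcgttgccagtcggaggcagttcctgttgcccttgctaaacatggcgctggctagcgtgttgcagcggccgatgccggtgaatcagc
Psmg1: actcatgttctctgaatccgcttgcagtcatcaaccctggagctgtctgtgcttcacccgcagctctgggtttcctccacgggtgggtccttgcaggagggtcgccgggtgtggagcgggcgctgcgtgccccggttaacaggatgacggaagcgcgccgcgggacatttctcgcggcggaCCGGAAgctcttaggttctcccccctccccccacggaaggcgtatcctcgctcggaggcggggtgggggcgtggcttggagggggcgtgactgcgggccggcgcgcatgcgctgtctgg
Psmg3: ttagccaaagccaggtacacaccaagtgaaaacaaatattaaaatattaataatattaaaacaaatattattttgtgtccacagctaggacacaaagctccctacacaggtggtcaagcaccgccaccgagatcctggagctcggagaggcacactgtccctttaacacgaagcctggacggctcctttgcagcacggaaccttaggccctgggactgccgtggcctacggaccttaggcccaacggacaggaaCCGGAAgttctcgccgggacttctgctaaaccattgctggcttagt
Psmb5 holds the first motif and both chaperones hold the third. Over the 39 windows, TGACNNNGC was found in 6 (15.4%), against 12.5% of the windows of all 27025 symbols and 15.1% of those of genes tested in LSK. CCAAT was found in 13 (33.3%), against 37.9% and 38.8%. CCGGAA was found in 20 (51.3%), against 15.2% and 29.4%. A match describes the letters of the window only.

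In MEP, loss of Bcor alone gave no such shift. No gene of the 47 was called, where 2.76% of all genes were, and none had an unadjusted p under 0.05 in limma's test in either direction, against 2.57% of all genes higher and 2.89% lower. The median log2 fold change was -0.06 and 36 of the 47 values were negative, but the median was 0.04 without WT replicate 2. Psmb5 had 121.4 and 123.1 FPKM in Bcor-/- MEP against 124.7, 148.7 and 114.0 in WT, and Psmg3 had 69.3 and 71.2 against 65.98, 76.4 and 62.8. Both genes overlapped WT. The spread in this test was again shared with the Bcor-/-Dnmt3a-/- libraries, so that small changes may have been missed. Over the catalytic subunits, activators, inhibitor and chaperones, changes ran from -0.20 (Psmd9) to 0.18 (Psmd10). The Bcor effect was compared between cell types on the LSK minus MEP difference of each mouse. The median difference over the 47 genes was 0.38 against 0.02 for all genes, 18 genes had an unadjusted p under 0.05, as did 1985 of all 10773 genes, and none an adjusted p under 0.05, where 0.538% of all genes did. For Psmb5 the difference was 0.67 ± 0.14 (limma adjusted p = 0.067) and for Psmg1 0.66 ± 0.15 (limma adjusted p = 0.074).

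**Figure D3:**
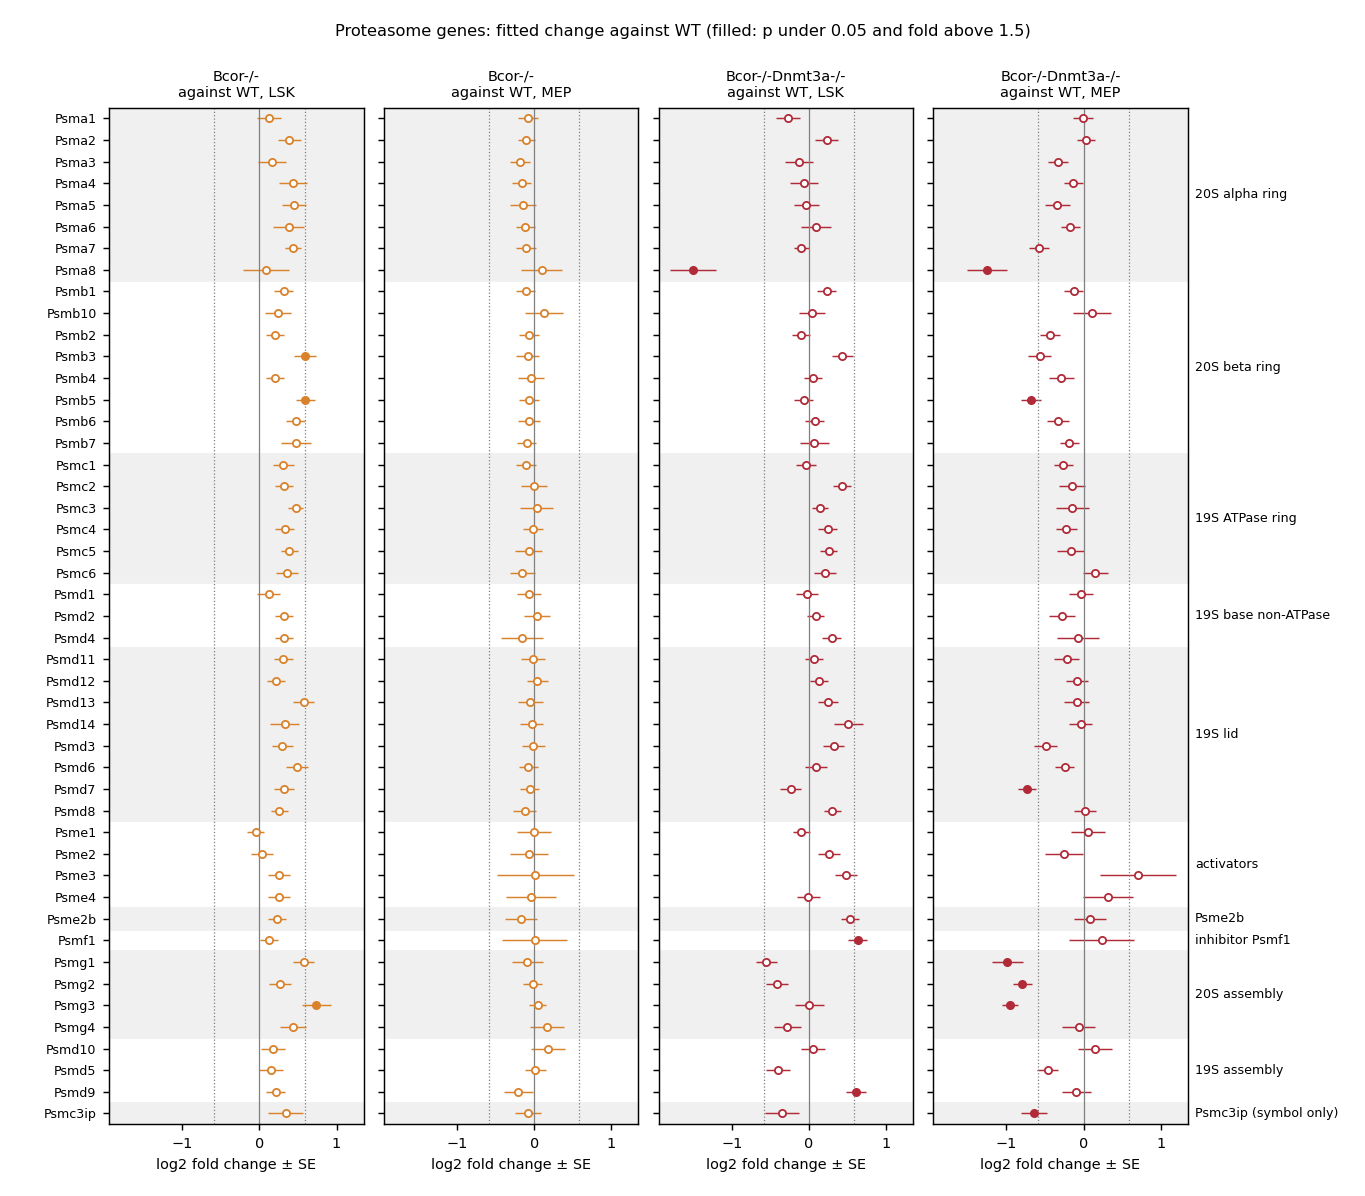
Log2 fold change against WT (point) with its SE (bar) for the 47 proteasome genes in Bcor-/- and Bcor-/-Dnmt3a-/- libraries of LSK and MEP, grouped by role. Filled points passed p under 0.05 and a 1.5-fold change, which the dotted lines mark; there are 3, 0, 3 and 7 of them from left to right.

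In Bcor-/-Dnmt3a-/- LSK the proteasome genes went in both directions. Of the 47 genes 3 were called, or 6.38%, where 28.3% of all genes were, 15% higher and 13.3% lower. The median log2 fold change was 0.07, against 0.02 for all genes, and changed sign to -0.06 under quantile normalization and to -0.01 without Bcor-/-Dnmt3a-/- replicate 1, where 6 genes were called. At an unadjusted p under 0.05 and any fold 11 genes rose and 4 fell, where 21.2% and 19.6% of all genes did. Under quantile normalization more of the 47 genes fell than rose, as given in the last section. The 11 were 6 without WT replicate 3, and the 4 were 7 without Bcor-/-Dnmt3a-/- replicate 1 and 2 without Bcor-/-Dnmt3a-/- replicate 2. Both libraries lay above every WT library for 16 genes and below for 7, against 25.5% and 24.1% of all genes. Both mutant genotypes share their WT controls.

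Psmf1, the inhibitor that binds the ends of the core, had 23.6 and 23.1 FPKM in Bcor-/-Dnmt3a-/- LSK, where WT had 13.7, 14.5 and 16.1, a log2 fold change of 0.63 ± 0.12 (limma adjusted p = 0.0044). Psmd9 had 24.1 and 21.5 FPKM against 13.8, 16.5 and 13.5, or 0.61 ± 0.13 (limma adjusted p = 0.0066). Under quantile normalization neither was called (0.54 and 0.52). Exons of Psmd9 overlap an antisense gene, as given above. The change of Psmd9 was under 1.5-fold without WT replicate 1, WT replicate 3 or Bcor-/-Dnmt3a-/- replicate 1 (0.53 to 0.58 on the log2 scale). With these and quantile normalization included, 5 of 20 alternatives ended the call of Psmd9. Psma8, which can replace Psma7 in the alpha ring, fell to 0.334 and 1.18 FPKM from 4.01, 4.16 and 3.34, a change of -1.50 ± 0.30 (limma adjusted p = 0.0056). It is the lowest of the 47 genes, so that little RNA stands behind this change. Psme2b and the nuclear activator Psme3 rose by less than 1.5-fold, by 0.54 ± 0.12 and 0.48 ± 0.15 (limma adjusted p = 0.008 and 0.036). Psme3 was called at 0.65 without Bcor-/-Dnmt3a-/- replicate 1 and had 0.31 without replicate 2 (limma adjusted p = 0.0071 and 0.14).

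The core chaperones Psmg1 and Psmg2 fell in Bcor-/-Dnmt3a-/- LSK, whereas Psmg1 rose in Bcor-/- LSK. Psmg1 had 26.2 and 24.5 FPKM, below every WT library, with a change of -0.55 ± 0.14 (limma adjusted p = 0.015). Psmg2 had 38.7 and 31.8 FPKM against 45.4, 51.0 and 45.1, or -0.41 ± 0.14 (limma unadjusted p = 0.017, adjusted p = 0.057). Psmg3 had 33.8 and 23.5 FPKM, on either side of the WT range, and Psmb5 had 73.9 and 72.7, inside it. Psmg1 was called without WT replicate 1 or Bcor-/-Dnmt3a-/- replicate 1 (-0.65 and -0.60), and Psmg2 had -0.28 without Bcor-/-Dnmt3a-/- replicate 2. Over all 20 alternatives Psmg1 was called in 3, and its change ran from -0.67 to -0.45. The difference between Bcor-/-Dnmt3a-/- and Bcor-/- libraries was not tested. Changes of Psmb6, Psmb7, Psmb10, Psme1, Psme2, Psme4, Psmg4 and Psmd10, none of which passed p under 0.05, ran from -0.28 (Psmg4) to 0.26 (Psme2). Psmb3 was higher in both genotypes, with 101.9 and 85.3 FPKM and a change of 0.43 ± 0.14 in Bcor-/-Dnmt3a-/- LSK (limma adjusted p = 0.044).

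In the cap, 14 of 17 genes had a positive change in Bcor-/-Dnmt3a-/- LSK, with a median of 0.21, and 6 rose at an unadjusted p under 0.05. Psmc2, an ATPase, had 85.7 and 83.4 FPKM against 68.98, 62.1 and 57.6, or 0.43 ± 0.12 (limma adjusted p = 0.025), and was the only cap gene past an adjusted p under 0.05. Psmd5, a cap chaperone, fell below every WT library with 31.6 and 27.9 FPKM against 43.98, 33.98 and 41.3 (limma unadjusted p = 0.031). In the list of other pathway genes, Ddi2, the protease that activates Nfe2l1, rose by 0.85 ± 0.18 (limma adjusted p = 0.0075). Zfand5 fell by 1.11 on the log2 scale (limma adjusted p = 0.0024). Beside these values, 12 of 12 erythroid and 5 of 6 B cell genes tested were called higher in Bcor-/-Dnmt3a-/- LSK, and 7 of 9 LSK gate genes lower. Of 6 T or NK cell genes 5 were called higher and 1 lower, of 13 interferon response genes 5 higher and 1 lower, and of 5 megakaryocyte genes 3 lower. Of 7 MEP genes 3 were called higher and 4 lower. The part of these cells in the result was not tested.

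In Bcor-/-Dnmt3a-/- MEP, 7 of the 47 genes were called and all 7 were lower. This is 14.9% of the 47, where 12.4% of all genes were called lower, 18.5% higher and 30.9% in either direction. Of the 47 changes 37 were negative, with a median of -0.17 against 0.02 for all genes, and at an unadjusted p under 0.05 and any fold 14 genes fell and none rose, where 22.5% and 22.7% of all genes did. Both libraries lay below every WT library for 16 genes and above for none, against 25.8% and 24.6% of all genes. Under quantile normalization the median of all genes moved to -0.17 and that of the 47 to -0.22. The count of 7 was 11 without Bcor-/-Dnmt3a-/- replicate 1 and 12 without replicate 2, with 3 and 1 of these higher. The 14 that fell were 28 without Bcor-/-Dnmt3a-/- replicate 2, and genes that rose numbered 5 without replicate 1 and 3 without replicate 2. The median was -0.39 without Bcor-/-Dnmt3a-/- replicate 2 and -0.10 without WT replicate 2.

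Of the 4 core chaperones 3 fell. Psmg3 had 36.02 and 33.4 FPKM in Bcor-/-Dnmt3a-/- MEP against 65.98, 76.4 and 62.8 in WT, a log2 fold change of -0.96 ± 0.10 (limma adjusted p = 0.0007). Psmg1 had 38.6 and 25.98 FPKM against 53.3, 76.9 and 63.2, or -0.99 ± 0.20 (limma adjusted p = 0.0073). Psmg2, which pairs with Psmg1, had 52.6 and 51.8 FPKM against 98.4, 101.3 and 76.4, or -0.80 ± 0.12 (limma adjusted p = 0.0025). All 3 lay below every other MEP library of the series in both Bcor-/-Dnmt3a-/- libraries. Psmg4, the partner of Psmg3, had 33.2 and 33.2 FPKM, inside the WT range of 25.4 to 42.04, with a change of -0.06 ± 0.22.

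Of the core subunits, 14 of 16 had a negative change in Bcor-/-Dnmt3a-/- MEP and 7 fell at an unadjusted p under 0.05, with a median of -0.31. Psmb5 had 74.6 and 84.8 FPKM against 124.7, 148.7 and 114.0, or -0.68 ± 0.13 (limma adjusted p = 0.0058). Psma8 again was low, with 0.821 and 1.47 FPKM against 3.39, 4.23 and 4.63 (change -1.25 ± 0.27, limma adjusted p = 0.0088). Psma7 and Psmb3 fell by just under 1.5-fold, by 0.58 and 0.57 on the log2 scale (limma adjusted p = 0.013 and 0.021). In the cap, 15 of 17 values were negative but 2 genes fell at p under 0.05. Psmd7, a lid subunit, had 117.5 and 140.8 FPKM against 219.5, 230.2 and 195.0, or -0.73 ± 0.12 (limma adjusted p = 0.0029). Psmd3 had -0.49 ± 0.15 (limma adjusted p = 0.035), with -0.72 in Bcor-/-Dnmt3a-/- replicate 1 and -0.27 in replicate 2. The cap chaperone Psmd5 fell by 0.47 on the log2 scale (limma adjusted p = 0.032), while Psmd9 and Psmd10 had -0.09 ± 0.19 and 0.15 ± 0.22. For Psmd9 and Psmd10, replicate 1 lay below the WT mean (-0.37 and -0.24) and replicate 2 above it (0.19 and 0.54). The catalytic subunits Psmb6 and Psmb7 had -0.33 ± 0.14 and -0.18 ± 0.13 (limma adjusted p = 0.1 and 0.29). Psmc3ip, which is no proteasome gene, was the last of the 7, at -0.64 ± 0.17 (limma adjusted p = 0.021). Without WT replicate 2 the changes of Psmb5 and Psmc3ip were under 1.5-fold (-0.58 and -0.52), as was that of Psmc3ip without Bcor-/-Dnmt3a-/- replicate 1 (-0.46), and with 1 variance per genotype Psma8 and Psmc3ip were not called. The change of Psmd5 was -0.28 without Bcor-/-Dnmt3a-/- replicate 1 and -0.65 without replicate 2, and that of Psmb6 was -0.19 without WT replicate 2.

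**Figure D4:**
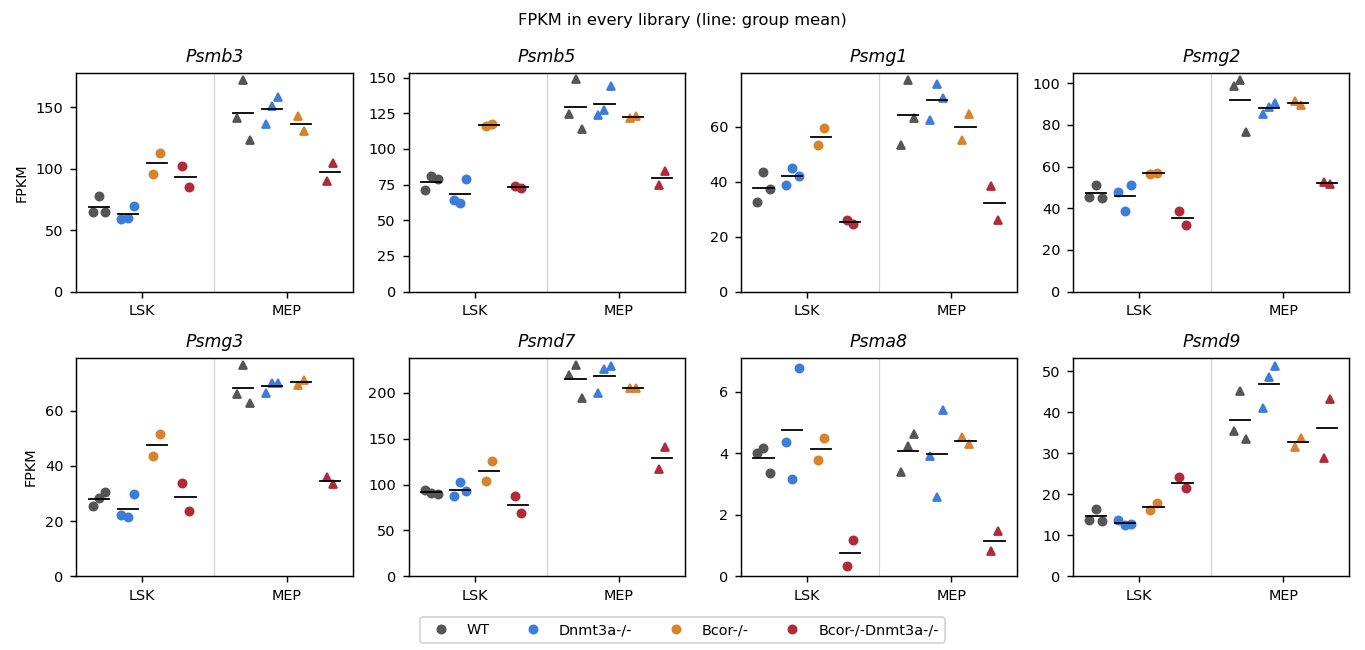
FPKM of 8 proteasome genes in every library of LSK (circles) and MEP (triangles), coloured by genotype, with the group mean as a line. Psmb5 is highest in Bcor-/- within LSK, at 116 and 117.2 FPKM, and Psmg1, Psmg2, Psmg3 and Psmd7 are lowest in Bcor-/-Dnmt3a-/- within MEP.

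Ribosomal and respiratory genes were lower in the same libraries. Of 80 cytosolic ribosomal protein genes tested in MEP, 77 had a negative change in Bcor-/-Dnmt3a-/- with a median of -0.49 and 44 fell at an unadjusted p under 0.05, and of 73 subunits of oxidative phosphorylation 64 were negative with a median of -0.34 and 33 fell. Among all genes 22.5% fell. Where 12.4% of all genes were called lower and 18.5% higher, 4 of the 31 other pathway genes were called, all lower. They were Rps27a at -1.07 ± 0.14, the shuttle factor Ubqln4 at -0.77 ± 0.09, the proteasome-bound thioredoxin Txnl1 at -0.64 ± 0.18 and the transcription factor Nfe2l2 at -0.59 ± 0.11 (limma adjusted p = 0.0012, 0.00078, 0.026 and 0.0043). Nfe2l2 had 47.6 and 52.8 FPKM against 76.4, 78.2 and 73.97 in WT. Txnl1 had 71.7 and 109.6 FPKM against 136, 142.8 and 137.4, so that its change rests mostly on replicate 1. Of the markers tested in Bcor-/-Dnmt3a-/- MEP, 6 of 12 erythroid, 6 of 10 granulocytic, 6 of 7 macrophage, 5 of 6 B cell, 4 of 5 T or NK cell and 9 of 12 interferon response genes were called higher, and 2 of 7 MEP and 1 of 5 megakaryocyte genes lower. Of the 12 erythroid genes 4 had negative changes, down to -1.72, and none was called lower. Of 8 LSK gate genes 1 was called higher and 2 lower. The summed FPKM of the MEP genes was 232.8 and 638.9 against 584.2 to 642.8 in WT. Their part in the result was not tested.

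The Bcor-/-Dnmt3a-/- MEP libraries differed from each other more than those of any other genotype, with a median absolute log2 difference of 0.37 over the 47 genes, against 0.04 to 0.28 between other replicates in MEP. Over all genes the difference was 0.49, against 0.10 to 0.23. The activators Psme3 and Psme4 and the inhibitor Psmf1 differed most. Psme3 had 112.5 FPKM in replicate 1 and 525.7 in replicate 2, against 144.1, 155.6 and 146.8 in WT. Psmf1 had 18.99 and 68.7 FPKM against 29.2, 36.5 and 26.96, and Psme4, an activator linked to histone degradation, had 23.7 and 64.2 against 30.97, 29.98 and 32.6. For each of the 3 genes, replicate 1 lay below and replicate 2 above all WT libraries. Fitted changes of these genes rest on 2 opposed libraries and were not called. Leaving out replicate 1 gave changes of 1.81, 1.14 and 1.02 for Psme3, Psmf1 and Psme4, and leaving out replicate 2 turned them to -0.40, -0.66 and -0.38.

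The interferon-inducible genes differed the opposite way. Psmb10 had 60.4 and 30.1 FPKM in Bcor-/-Dnmt3a-/- replicates 1 and 2 against 35.3, 42.5 and 41.6 in WT, and Psme1 had 228.3 and 120.3 against 164.9, 165.2 and 148.5. Psme2b had 159.9 and 89.2 FPKM and Psme2 37.6 and 21.8. Psmb8 and Psmb9, the other immunoproteasome subunits and no part of the 47, also had more in replicate 1, with 253.3 and 60.8 FPKM for Psmb8 (WT 97.96, 78.02 and 97.02) and 190.8 and 30.97 for Psmb9 (WT 63.6, 58.9 and 54.7). Replicate 1 was thus high in the immunoproteasome genes and below the WT mean in 40 of the 47 genes. Beside this, replicate 1 held the larger macrophage and B cell sums (761.1 and 1867 FPKM, against 26.7 and 121.2), and replicate 2 the larger erythroid and granulocytic sums (97370 and 15310, against 4394 and 6805). Interferon response sums were 895.8 and 1015 against 244.2 to 312.1 in WT. These sums include Psmb8 and Psmb9 and so are not independent of the values above. Their part in the split was not tested. In LSK the 2 libraries differed by a median of 0.18 over the 47 genes, against 0.11 to 0.22 between other LSK replicates, but by 0.42 over all genes, against 0.14 to 0.18. In these libraries Psme3 had 90.9 and 115.1 FPKM against 73.5, 75.7 and 69.7 in WT.

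**Figure D5:**
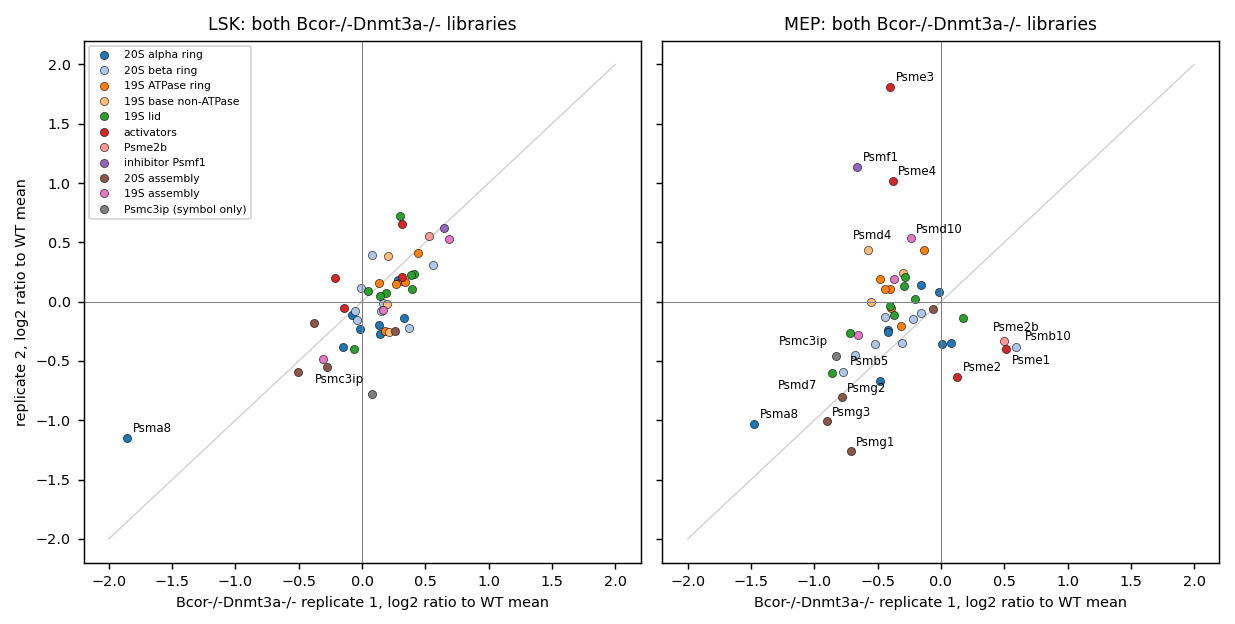
Difference of log2(FPKM + 1) from the WT mean in Bcor-/-Dnmt3a-/- replicate 1 (x) and replicate 2 (y) for the 47 proteasome genes, coloured by role, in LSK and MEP; the grey diagonal marks equal values. In MEP 3 of the 4 core chaperones lie low in both replicates, Psme3, Psme4 and Psmf1 lie above 0 in replicate 2 and below 0 in replicate 1, and Psmb10, Psme1 and Psme2b the other way.

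Promoter windows of Psme3 and Psmf1 are shown because these genes had the most discordant high values. They lie at chr11:101315963-101316262 (plus strand) and chr2:151741261-151741560 (minus strand) of GRCm38.p6 (RefSeq), with the same 3 motifs in capitals on either strand:
Psme3: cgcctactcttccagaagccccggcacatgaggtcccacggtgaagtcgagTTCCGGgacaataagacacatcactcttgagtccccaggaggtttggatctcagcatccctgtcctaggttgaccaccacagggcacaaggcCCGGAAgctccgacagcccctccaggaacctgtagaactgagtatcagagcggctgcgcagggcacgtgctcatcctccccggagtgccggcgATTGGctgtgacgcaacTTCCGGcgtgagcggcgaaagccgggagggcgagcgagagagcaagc
Psmf1: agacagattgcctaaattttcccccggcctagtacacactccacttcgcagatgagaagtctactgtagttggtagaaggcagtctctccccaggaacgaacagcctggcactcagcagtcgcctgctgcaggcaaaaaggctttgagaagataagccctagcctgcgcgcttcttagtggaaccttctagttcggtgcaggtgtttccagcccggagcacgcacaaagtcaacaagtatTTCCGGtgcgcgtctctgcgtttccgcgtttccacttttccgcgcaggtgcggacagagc
Psme3 holds 3 matches to CCGGAA and 1 to CCAAT, and Psmf1 holds 1 match to CCGGAA. Neither holds TGACNNNGC, which says only that these letters are not in the window.

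The Bcor-/-Dnmt3a-/- effect was lower in MEP than in LSK for part of the genes. On the LSK minus MEP difference of each mouse, 6 of the 47 genes (12.8%) had a limma adjusted p under 0.05, all with the higher effect in LSK, where 20.5% of all genes differed and 8.98% had the higher effect in LSK. The 6 genes were the core subunits Psma7, Psmb3 and Psmb5, the lid subunits Psmd3 and Psmd14 and the chaperone Psmg3. Psmb3 had opposite signs, with 0.43 in LSK and -0.57 in MEP, a difference of 0.999 ± 0.18 (limma adjusted p = 0.0077). Psmg3 had 0.01 in LSK and -0.96 in MEP, a difference of 0.96 ± 0.20 (limma adjusted p = 0.013). The median difference over the 47 genes was 0.33, against -0.03 for all genes. The count was 2 without WT replicate 1 or WT replicate 2, 14 without Bcor-/-Dnmt3a-/- replicate 1 (5 of them lower in LSK), 25 without replicate 2, and 0 with 1 variance per genotype, where 0 of all 10773 genes passed.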

How the data were processed

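FPKM values for 10 LSK and 10 MEP libraries were deposited as gene tables without read counts, so depth and counting error are unknown. The submitters' processing notes name STAR 2.5.1b, SAMtools 1.9, Cufflinks 2.2.1 and mm9; annotation, strand setting and scaling between libraries are not given in the sources used here. Groups, mice and replicate numbers came from the labels. The genes and lists were chosen with earlier results of these data known.

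FPKM were analyzed as log2(FPKM + 1), so fold changes of low genes are understated. Within each cell type, genes averaging 1 FPKM or more were fitted with limma 3.58.1 (R 4.3.3), with 1 mean per genotype and a mean-variance trend, giving 11952 genes in LSK and 10933 in MEP. A call needed both p under 0.05 before adjustment and over 1.5-fold change, the study's thresholds, for which it names no test; two-sided p-values were adjusted by Benjamini-Hochberg over all genes. The cell types were compared on the LSK minus MEP difference of each mouse over 10773 genes; the labels name the mouse, and deviations of its 2 libraries from their group means correlated at 0.00065 to 0.559. Alternatives covered pseudocount, filter, scaling, samples in the fit, replicate block, trend, variance, adjusted p and each library left out. Promoter windows came from RefSeq (GRCm38.p6) and overlaps from GENCODE. The procedure was tested on simulated data. Genes named are every called gene and a fixed set (Psmb5 to Psmb7, Psmb10, Psme1 to Psme4, Psmf1, Psmg1 to Psmg4, Psmd5, Psmd9, Psmd10); others were chosen after their values were seen. One result of the pathway list is not reported here. Figures used Python 3.11.15 and matplotlib 3.10.9. By the labels, replicates are separate mice.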

Additional observations from a re-analysis of the deposited data

Results flagged for a closer look

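For 6 of the 47 proteasome genes (12.8%), against 20.5% of all genes, the effect of losing both Bcor and Dnmt3a differed between LSK and MEP, by limma's test on the LSK minus MEP difference of each mouse with Benjamini-Hochberg adjustment. The log2 effect in LSK exceeded that in MEP for Psmb3 at 0.999 ± 0.18 (adjusted p = 0.0077), Psmg3 at 0.96 ± 0.20 (adjusted p = 0.013) and Psmd3 at 0.82 ± 0.21 (adjusted p = 0.027). It did so by less for Psmb5 at 0.62 ± 0.14 (adjusted p = 0.019), Psmd14 at 0.55 ± 0.15 (adjusted p = 0.034) and Psma7 at 0.48 ± 0.12 (adjusted p = 0.026) in the same limma test. Psmb3, Psmd3 and Psmd14 had positive values in LSK and negative values in MEP, whereas Psma7, Psmb5 and Psmg3 were near 0 in LSK (-0.10, -0.07 and 0.01) and lower in MEP (-0.58, -0.68 and -0.96). With 1 library left out, Psmd3 ran from 0.50 (without Bcor-/-Dnmt3a-/- replicate 1) to 1.13. Psmd3, Psmd14, Psma7 and Psmb5 each lost the call without WT replicate 1 or WT replicate 2, Psmd3 and Psmd14 also without WT replicate 3, Psmd3 without Bcor-/-Dnmt3a-/- replicate 1 and Psmd14 without Dnmt3a-/- replicate 3. No gene passed when each genotype had its own variance, with limma adjusted p from 0.19 to 0.42. Over all 15 alternatives, 6 ended the call of Psmd14 and 4 that of Psma7. No cause was tested.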

How the results depend on the processing

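In Bcor-/- LSK, quantile normalization left 1 called gene of 3, a median change of 0.179 and 10 genes that rose at any fold, and moved the median of all genes to -0.02. The count of 25 that rose was 13 with a replicate block and 6 at an adjusted p. Leaving out 1 library at a time gave 1 to 5 called and 10 to 28 that rose. In Bcor-/-Dnmt3a-/- LSK, the median was -0.0563 under quantile normalization. The 11 genes that rose and 4 that fell at any fold became 6 and 10 under quantile normalization, 3 and 1 with 1 variance per genotype and 6 and 2 at an adjusted p. Leaving out 1 library gave 2 to 6 called, 6 to 11 that rose and 2 to 7 that fell. In Bcor-/-Dnmt3a-/- MEP, 5 genes instead of 14 fell at any fold with 1 variance per genotype. Leaving out 1 library gave 5 to 12 called, a median of -0.392 to -0.103, 0 to 5 genes that rose and 12 to 28 that fell. The count of 6 genes that differed between LSK and MEP was 0 with 1 variance per genotype and 2 to 25 with 1 library left out. Psmf1 in Bcor-/-Dnmt3a-/- MEP reversed to -0.663 without Bcor-/-Dnmt3a-/- replicate 2 and was called at 1.14 without replicate 1. Each of these changes follows the alternative named, and the cause was not tested.

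Counts of genes called against WT otherwise stayed within 1.5 times with median centring, 5 FPKM as the minimum, no filter, 0.1 as the pseudocount, a fit of only the compared genotypes, no trend, 1 variance per genotype and the adjusted p. Replicate numbers did not pair the samples, since correlations of same-numbered libraries across genotypes ran from -0.19 to 0.34; the replicate block gave 4 called genes in Bcor-/- LSK and 9 in Bcor-/-Dnmt3a-/- MEP. Depth is unknown, 2 libraries stand for each of 2 genotypes, and a library left alone in its group was assumed to vary like the others.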
